A study of Homo sapiens with 6 samples.

Results

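A stretch of 1 Mb on chromosome 8 that holds the carbonic anhydrase genes CA13, CA1, CA3 and CA2 carried H3K27ac peaks in both cell types of this study. Of the M2 macrophage peaks, 7 lay in the gene cluster, the widest at the start of CA2, and 12 in a neighbouring array of REXO1L repeats. Of the THP-1 peaks, 3 lay in the gene cluster and 34 in the array. The window was taken as chromosome 8 from 86.00 to 87.00 Mb in hg19, and all H3K27ac peaks of either deposited list that overlap it are its members. There were 32 such peaks among 56420 in M2 macrophages and 45 among 31444 in THP-1 cells, 77 of 87864 in all. The window was selected on the numbers and positions of peaks in these same lists, so every count and length given here is a description, and no test was made on it.

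The first cell type is labelled as M2 macrophages, a name for macrophages in an alternatively activated state, and the labels do not say from which cells they were derived. THP-1 is a human monocytic leukaemia cell line, labelled as monocytes. Both were grown in RPMI medium with fetal bovine serum, and no treatment is labelled for either. Each cell type had 1 library for H3K27ac, an acetylated form of histone H3 found at active promoters and enhancers, and further libraries for the factor YY1 and for input DNA were not analysed here. Nothing measures the spread between libraries, since there was 1 per cell type, and no p-value is given. No gene positions of the hg19 build were used beyond those that define the window, so the cell type labels could not be checked on marker genes.

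Carbonic anhydrases are zinc enzymes that turn carbon dioxide and water into bicarbonate and a proton. CA2 is the fast cytosolic form found in many tissues, and in osteoclasts, which arise from the monocyte and macrophage lineage, it supplies the protons for bone resorption. CA1 is abundant in red blood cells, CA3 is a slow form of skeletal muscle and fat, and CA13 is a further cytosolic form. In the RefSeq gene table of GRCh38, used for gene order only, LRRCC1, E2F5 and RBIS come before CA13, CA1, CA3 and CA2, and 11 REXO1L pseudogenes follow CA2. REXO1L genes are tandem copies related to an RNA exonuclease gene, and short reads cannot be placed with certainty among such copies.

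For each peak the peak caller gave a fold enrichment over its local background and a -log10 q, as the authors deposited them. These values apply within a list. To set the cell types side by side, the fragments over each summit and the local background were recovered from fold enrichment and p-value. The fragments, multiplied by a scale for each list given below, and the background were divided by the lowest background of the list. That lowest background was taken as the genome-wide level. All 77 peaks of the window had a single solution. Over the whole lists the summit coverage had a median of 16.95 times the lowest background in M2 macrophages and 22.1 times in THP-1 cells, and the local background a median of 2.38 times in M2 macrophages and 4.99 times in THP-1 cells.

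**Figure D1:**
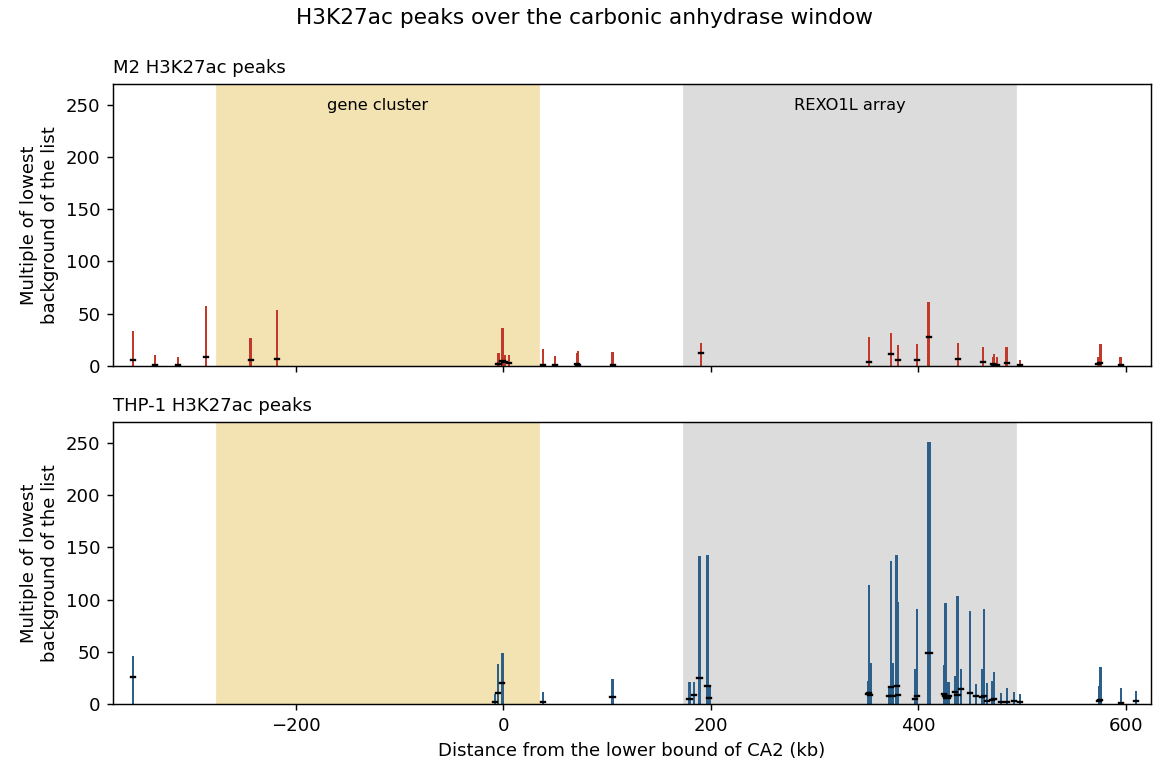
H3K27ac peaks of M2 macrophages (upper panel) and THP-1 cells (lower panel) over the 1 Mb window, by distance in kb from the lower bound of CA2. Bar height is the summit coverage and the black line the local background, both as multiples of the lowest background of the list, and bars are drawn at least 2.2 kb wide. M2 bars reach at most 61.7, while the tallest THP-1 bars, up to 251.0, stand in the REXO1L array.

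In the gene cluster, from 86.10 to 86.41 Mb, M2 macrophages had more sequence under H3K27ac peaks than THP-1 cells. The M2 list held 7 peaks there over 6.17 kb and the THP-1 list 3 peaks over 1.54 kb, a covered length 4.01 times as great in M2 macrophages. The peak numbers had a ratio of M2 to THP-1 of 2.33. Over the whole lists the ratio was 1.79 in peak number and 2.19 in covered length, and on chromosome 8 it was 2.02 and 2.58. Of 7199 tiles of the same 310 kb length with a peak in either list, 60.3% were covered at least 2 times as far in M2 macrophages. A contrast of at least 2 times in this direction was thus the common case. The share of tiles at 4 times is not given here. Among windows of 1 Mb, 59.7% were covered at least 2 times as far in M2 macrophages and 22.1% at least 4 times. The M2 list was also cut to its 31444 peaks of highest -log10 q, the length of the THP-1 list. Each list then held 3 peaks in the cluster. The length ratio was 2.79, and 33.3% of THP-1 peaks there were shared, with fewer M2 peaks left to meet. Peaks reaching a -log10 q of 10 numbered 4 in M2 macrophages and 1 in THP-1 cells, with a length ratio of 7.22. Over the whole lists the median -log10 q was 13.4 in M2 macrophages and 8.41 in THP-1 cells. This cut therefore keeps a larger share of the M2 list, and the length ratio of the whole lists at this cut is not given here.

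Of the 7 M2 peaks in the cluster, 2 overlapped a THP-1 peak and 5 did not, where 63.0% of all M2 peaks did not. Among the 3 peaks of THP-1 cells, 2 met an M2 peak and 1 did not, where 24.7% of all THP-1 peaks did not. Both overlaps lay just below CA2. The middle of the cluster was bare, with no peak of either list over 209.5 kb from 86158516 to 86367968.

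CA2 was placed at 86.376 to 86.394 Mb, and since it is read towards higher coordinates the lower bound is its 5′ end. The M2 peak at this end spanned 2679 bp, from 86374021 to 86376699, and reached across the lower bound. It was wider than 93.9% of M2 peaks, with a fold enrichment of 6.55, a -log10 q of 32.1 and 83 fragments over its summit. The THP-1 peak it overlapped was 401 bp wide, from 86374954 to 86375354, with a fold enrichment of 2.36, a -log10 q of 9.74 and 86 fragments, and it ended 646 bp short of CA2. The summits of the pair lay 682 bp apart, the M2 summit nearer to the gene.

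The narrower THP-1 peak at CA2 did not have less coverage. Summit coverage was 36.1 times the lowest background in M2 macrophages and 48.7 times in THP-1 cells, a ratio of M2 to THP-1 of 0.740. Over 15115 pairs of the whole lists in which each peak overlapped 1 other, this ratio had a median of 0.937. Its quartiles were 0.647 and 1.38, so the CA2 pair lay within the common range. The local background was 5.07 times the lowest in M2 macrophages and 20.3 times in THP-1 cells. The lower fold enrichment in THP-1 cells thus came with a higher background and similar fragments. Whether the part of the macrophage peak that crosses into CA2 was acetylated in THP-1 cells cannot be read from a list of peaks, because coverage outside peaks is not in it.

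**Figure D2:**
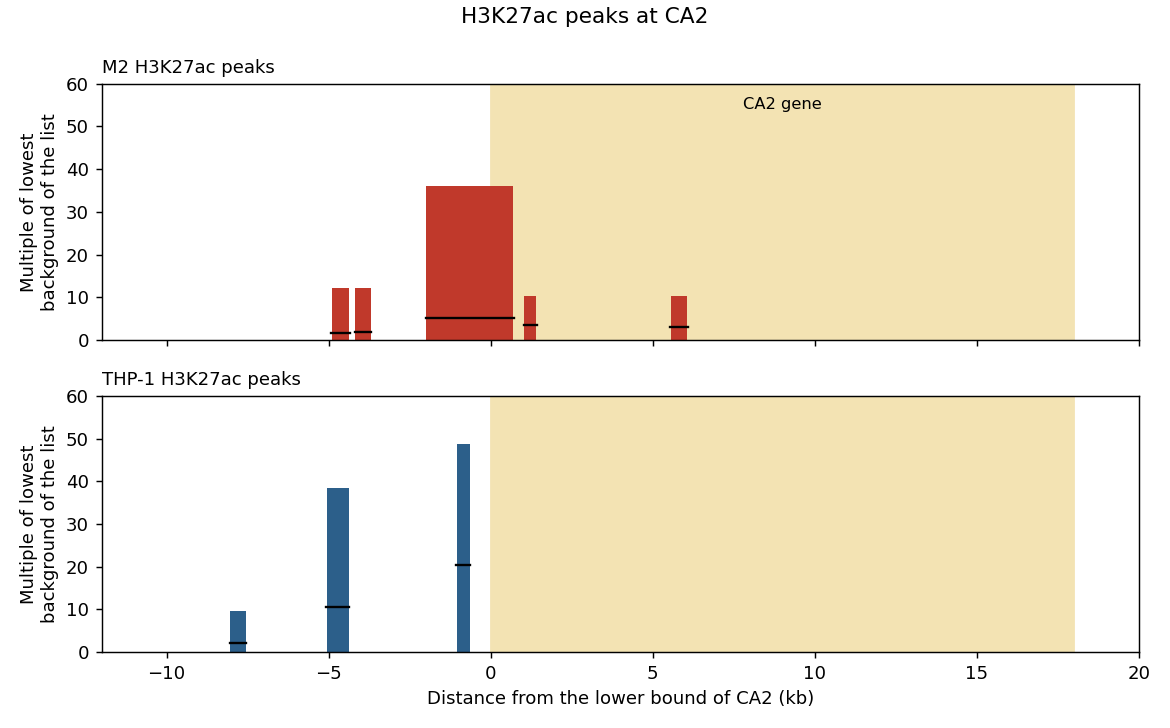
Peaks near CA2 in M2 macrophages (upper panel) and THP-1 cells (lower panel), drawn to scale by distance in kb from the lower bound of the gene. Bar height is the summit coverage and the black line the local background, as multiples of the lowest background of the list. The wide M2 peak crosses into the gene, and 3 THP-1 peaks lie below it, none inside.

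Inside CA2 the M2 list held 2 further, weaker peaks and the THP-1 list none. The first spanned 86377037 to 86377408, 1.04 kb inside the gene, with a fold enrichment of 2.73 and a -log10 q of 3.24. The second spanned 86381560 to 86382060, 5.56 kb inside, with a fold enrichment of 3.03 and a -log10 q of 3.97. Each had 24 fragments over its summit, and by -log10 q they stood at percentiles 4.05 and 8.46 of the M2 list.

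A second pair lay below CA2. The M2 peak at 86371109 to 86371642 ended 4.36 kb from the gene and had 28 fragments and a fold enrichment of 5.73, and the THP-1 peak at 86370953 to 86371621 had 68 fragments and a fold enrichment of 3.47. Their summits were 26 bp apart. Summit coverage was 12.2 times the lowest background in M2 macrophages and 38.5 times in THP-1 cells, a ratio of 0.316, while the local background was 1.70 times in M2 macrophages and 10.7 times in THP-1 cells. At this site coverage was higher in THP-1 cells, although their fold enrichment was lower. A neighbouring M2 peak at 86371825 to 86372294, also with 28 fragments, missed the THP-1 peak by 203 bp. A THP-1 peak at 86367969 to 86368439 had no M2 counterpart within 2.67 kb, with 17 fragments and a fold enrichment of 3.83. Over CA2 and the 10 kb below it, 5 M2 peaks covered 4556 bp and 3 THP-1 peaks 1541 bp, a ratio of 2.96.

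The other 2 M2 peaks of the cluster lay at its lower end, on the CA13 side, and had no THP-1 peak near them. The peak at 86157644 to 86158515 had the most fragments of the cluster, 123, with a fold enrichment of 6.97 and a -log10 q of 49.8, higher than 86.5% of M2 peaks. The nearest THP-1 peak was 138.5 kb away. The peak at 86132042 to 86132785 had 61 fragments, a fold enrichment of 4.36 and a -log10 q of 16.1. Whether either is a promoter of CA13 or of a gene before it was not determined, because no hg19 positions of these genes were used. No peak in either list could be assigned to CA1 or CA3.

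Further down the window, between 86.00 and 86.10 Mb, the M2 list held 4 peaks over 4.14 kb and the THP-1 list 1 peak over 0.416 kb. The M2 peak at 86088875 to 86090487 had 133 fragments and a fold enrichment of 6.27, and no THP-1 peak lay within 69.8 kb. It was also the widest M2 peak of this stretch, at 1613 bp. The others had fold enrichments of 6.67 at 86040323, 5.39 at 86018589 and 5.29 at 86061886. The only pair was at 86018589 to 86020017 in M2 macrophages and 86018693 to 86019108 in THP-1 cells. The THP-1 peak had 82 fragments against a background 26.5 times the lowest, so its fold enrichment was only 1.74, while the M2 peak had 78 fragments against a background of 5.86 times. This THP-1 peak had a -log10 q of 3.70, with a summit coverage of 46.5 times the lowest background, against 33.9 times for the M2 peak. At sites with an M2 peak alone, the THP-1 fragments and background cannot be recovered, so a missing THP-1 peak does not show a lack of acetylation.

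In the REXO1L array, from 86.55 to 86.87 Mb, the direction was the opposite. The M2 list held 12 peaks over 6.28 kb and the THP-1 list 34 peaks over 38.5 kb. The ratio of M2 to THP-1 was 0.353 in peak number and 0.163 in covered length. Peaks took up 1.96% of the array in M2 macrophages and 12.02% in THP-1 cells. Of 7058 tiles of the same 320 kb length with a peak in either list, 6.79% were covered at least 2 times as far in THP-1 cells. Among these tiles the array had the greatest excess of THP-1 over M2 covered length, and 1 other tile held more THP-1 peaks. The array supplied 75.6% of the THP-1 peaks of the window and 37.5% of the M2 peaks. With lists of equal length it held 4 M2 and 34 THP-1 peaks, a length ratio of 0.0691. Peaks reaching a -log10 q of 10 numbered 5 in M2 macrophages and 22 in THP-1 cells, a length ratio of 0.0998.

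Among the array peaks of THP-1 cells, 12 of 34 were among the strongest of their list, with a -log10 q of 80.5 or more. The other 22 had a -log10 q of 24.8 or less, down to 2.002. Of 31444 THP-1 peaks, 180 had a -log10 q of at least 80, of which 27 were on chromosome 8 and 12 in the array. In the M2 list 2843 of 56420 peaks were at that level. None of its 12 array peaks reached it, with a highest -log10 q of 23.6, which for 12 peaks is near the share of the list. A -log10 q applies within its list, so these counts do not compare the cell types. The strongest THP-1 peak, at 86784806 to 86788146, was also the widest of the array at 3341 bp, held 443 fragments over its summit and ranked 11 in the THP-1 list by -log10 q. The M2 peak inside it, at 86785883 to 86786261, was 379 bp wide with 142 fragments and a fold enrichment of 2.23.

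By fold enrichment the leading THP-1 peaks of the array were at 86812435 (11.5), 86801772 (11.2), 86774315 (11.1), 86755934 (10.9) and 86838330 (10.5). By this value they stood at percentiles 98.85 to 99.2 of the THP-1 list. Their summits held 183, 170, 161, 173 and 160 fragments. The leading M2 peaks were at 86848485 (7.91), 86851923 (6.07), 86728260 (6.02), 86860702 (5.92) and 86838487 (4.13), with 27, 20, 63, 41 and 43 fragments. The M2 peak at 86860702 was the widest of that list in the array, at 1071 bp. In the M2 list their fold enrichments stood at percentiles 77.4, 59.5, 58.7, 57.4 and 25.3.

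Where the M2 list had a peak in the array, a THP-1 peak was nearly always there too. Of 12 M2 peaks 11 overlapped a THP-1 peak, 91.7% (exact 95% interval 61.5 to 99.8), against 37.0% of all M2 peaks. Of the 34 array peaks in THP-1 cells 11 met an M2 peak, 32.4% (17.4 to 50.5), against 75.3% of all THP-1 peaks. These intervals cover counting error only and treat peaks as independent, which copies of a repeat are not. The share in THP-1 cells was 50% after peaks within 1000 bp were merged, and also 50% when an M2 peak within 1000 bp was enough, but 11.8% in lists of equal length. For equal length only the M2 list was shortened, which leaves fewer M2 peaks to meet. The share of all THP-1 peaks under these settings is not given here. Of the 12 strongest THP-1 peaks, 8 had an M2 counterpart. In 7 of these 8 pairs the summits of the cell types were 14 to 45 bp apart and in the other 792 bp. The median over 15927 one-to-one pairs of the whole lists was 78 bp. The remaining array pairs, with weaker THP-1 peaks, had summits 81, 113 and 157 bp apart, above that median. Over all 11 array pairs the median was 31 bp.

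At most of these shared sites recovered coverage was lower in M2 macrophages. The number of array copies in either cell type cannot be read from peak lists, so its part in this difference was not tested. Over the 11 pairs of the array the ratio of M2 to THP-1 summit coverage had a median of 0.233 and ran from 0.156 to 1.17. It was below 0.5 in 10 of 11 pairs, against 13.7% of 15115 one-to-one pairs of the whole lists, whose median was 0.937. Coverage was lower in M2 macrophages by any amount in 54.7% of those pairs. At the strongest site coverage was 61.7 times the lowest background in M2 macrophages and 251.0 times in THP-1 cells. At 86728260 to 86728797 in M2 macrophages, where the THP-1 peak spans 86728216 to 86728974, it was 27.4 times in M2 macrophages and 113.9 times in THP-1 cells. The exception was the pair with the M2 peak at 86860702, near the upper end of the array, with 17.8 times in M2 macrophages and 15.3 times in THP-1 cells.

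**Figure D3:**
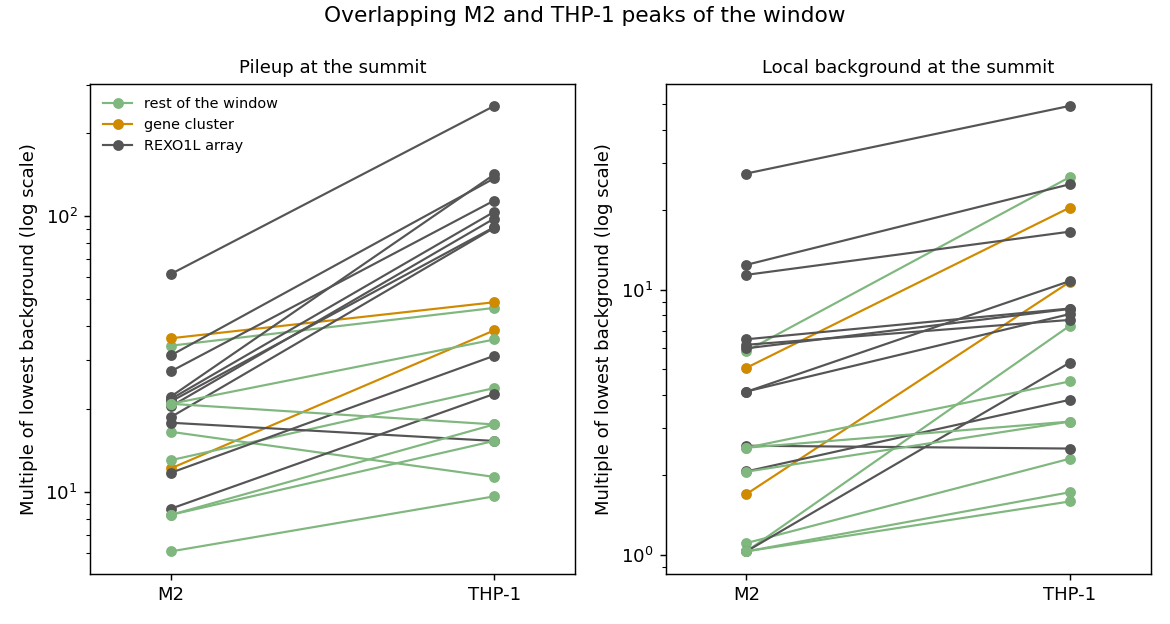
Summit coverage (left) and local background (right) of the 21 overlapping pairs of the window, as multiples of the lowest background of the list on log axes, with each line joining an M2 peak to its THP-1 peak. Coverage in the REXO1L array was higher in THP-1 cells in 10 of 11 pairs, against 8261 of 15115 one-to-one pairs of the whole lists. The background was also higher in THP-1 cells in 10 of 11 array pairs. Over the whole lists this held for 12613 of 15115 pairs, so it was the common case.

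The local background at the array summits was above the list median in both cell types. Its array median was 5.07 times the lowest in M2 macrophages and 8.07 times in THP-1 cells. The whole lists had 2.38 times in M2 macrophages and 4.99 times in THP-1 cells. In the gene cluster the median was 3.49 times in M2 macrophages and 10.7 times in THP-1 cells. The cluster thus exceeded the array in THP-1 cells but not in M2 macrophages. At the strongest array site the background was 27.4 times the lowest in M2 macrophages and 49.2 times in THP-1 cells. In the 11 pairs the ratio of M2 to THP-1 background had a median of 0.556, close to the 0.471 over one-to-one pairs of the whole lists. In the gene cluster the 2 pairs had ratios of 0.159 and 0.249. Reads from repeated copies cannot be told apart, and the part of read placement in the coverage of the array was not tested.

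Because of the array, the window as a whole was covered further in THP-1 cells. Peaks covered 24.3 kb in M2 macrophages and 47.96 kb in THP-1 cells, and 3.9% of 2689 windows of 1 Mb with a peak in either list were covered at least 2 times as far in THP-1 cells. The ratio of this window, 0.507, is just short of that limit. THP-1 peaks covered more than M2 peaks in 285 of these windows, and by difference in covered length this window ranked 1. Without the array the window held 20 peaks over 18.0 kb in M2 macrophages and 11 over 9.50 kb in THP-1 cells, the direction of the whole lists.

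**Figure D4:**
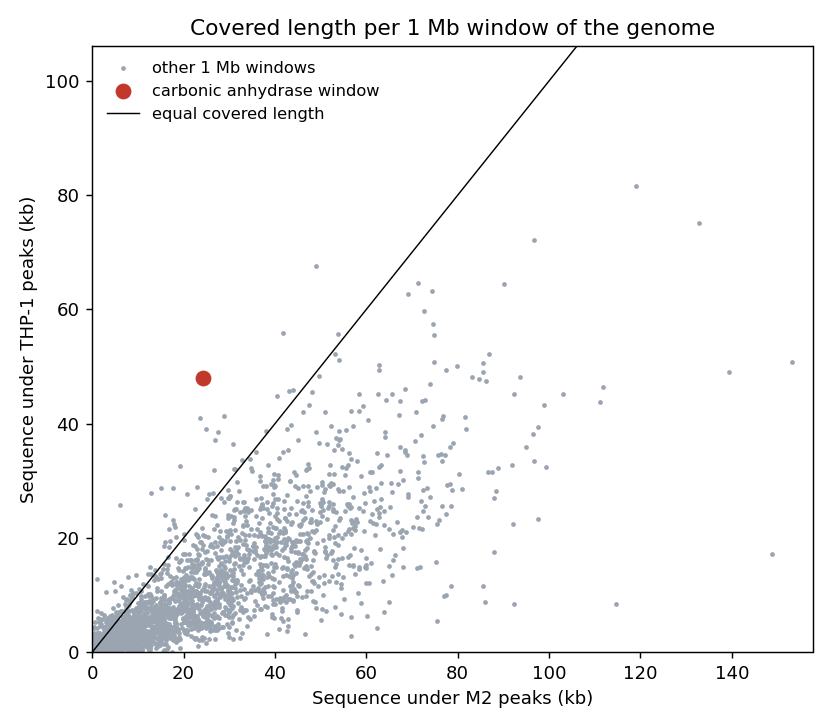
Sequence under M2 peaks (horizontal axis, kb) and under THP-1 peaks (vertical axis, kb) in each of 2689 windows of 1 Mb that hold a peak. The carbonic anhydrase window, with 24.3 kb in M2 macrophages and 47.96 kb in THP-1 cells, is 1 of 285 windows above the line of equal length.

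The stretches on either side of the array were less unequal. Between the cluster and the array the M2 list held 5 peaks over 3.92 kb and the THP-1 list 2 peaks over 1.72 kb, and both THP-1 peaks overlapped M2 peaks. The M2 peak at 86413847 to 86415287 had the highest fold enrichment of the whole window in that list, 10.5, and was the widest of the stretch. Coverage there was higher in M2 macrophages, at 16.5 times the lowest background, against 11.3 times in THP-1 cells, from 38 M2 and 20 THP-1 fragments. In the other pair of the stretch, at 86481050 in M2 macrophages and 86481001 in THP-1 cells, coverage was lower in M2 macrophages. It was 13.0 times in M2 macrophages and 23.8 times in THP-1 cells, from 30 M2 and 42 THP-1 fragments. The other M2 fold enrichments were 9.14 at 86447801, 8.75 at 86481050, 6.14 at 86446902 and 5.41 at 86425705, and the THP-1 peaks had 4.14 at 86414058 and 3.10 at 86481001.

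Beyond the array, from 86.87 to 87.00 Mb, the M2 list held 4 peaks over 3.79 kb and the THP-1 list 5 over 5.83 kb. All 4 M2 peaks met a THP-1 peak, and 4 of the 5 THP-1 peaks met one of M2. The widest peak of the stretch in each list lay at the same place, with summits 24 bp apart. It spanned 86950245 to 86952796 in M2 macrophages and 86950710 to 86952776 in THP-1 cells. Fold enrichments were 7.003 in M2 macrophages and 7.15 in THP-1 cells. Summit coverage was 20.9 times the lowest background in M2 macrophages and 35.7 times in THP-1 cells, a ratio of 0.584. Coverage was lower in M2 macrophages in 4 of the 5 pairs of this stretch, some peaks entering more than 1 pair. Over one-to-one pairs of the whole lists it was lower in 54.7%. The THP-1 peak of highest fold enrichment, 7.35, was at 86971154, and the one without an M2 counterpart was at 86985119, with 23 fragments. The remaining M2 fold enrichments were 5.66 at 86970905, 4.26 at 86874106 and 3.40 at 86949575, and the remaining THP-1 ones 4.84 at 86949623, 4.45 at 86873852 and 4.18 at 86985119.

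The members just inside and outside the bounds of the window ranged from weak to above the middle of their list. Inside the lower bound lay the pair at 86018589 described above, at fold enrichment percentiles 49.4 of the M2 list and 4.81 of the THP-1 list. Outside it were M2 and THP-1 peaks at 85920095 and 85920424, with fold enrichments of 8.11 in M2 macrophages and 3.64 in THP-1 cells. Inside the upper bound the last M2 peak began at 86970905 and the last THP-1 peak at 86985119. Outside it an M2 peak at 87048670 had a fold enrichment of 4.59, and a THP-1 peak at 87045568 one of 4.42.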

How the data were processed

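Peaks of 2 H3K27ac libraries, M2 and THP-1, were used. The submitters' processing notes name Bowtie2, MACS2 version 2.1.0 and hg19, without settings. Use of an input control is not given in these notes. Fold enrichment, a ratio of the summit over local background, was deposited by the authors. So were the -log10 p and -log10 q, and the deposited score is 10 times the -log10 q without decimals (in 56533 of 56533 M2 and 31471 of 31472 THP-1 lines) and was not used. The files have no header and were read in narrowPeak order.

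The Y chromosome was left out. Peaks with at least 1 bp in common were counted as shared. Bounds of the window, cluster, CA2 and array came from the rule that defines the region, and peaks count in each stretch they overlap. Tiles and windows count peaks by midpoint. Fragments and background were solved from fold enrichment, as pileup plus 1 over background plus 1, and a Poisson p-value. A ChIP scale of 0.842 for M2 and 1.0 for THP-1 gave whole fragments within 0.02 for 100.0% of peaks. A single solution was found for 98.2% of M2 macrophage peaks and 96.4% of those in THP-1 cells. Median fragments over a summit were 39 in each list. The lowest background was 1.94 in M2 and 1.77 in THP-1, in units of scaled fragments. Fragments were multiplied by the ChIP scale before division by it, and the fragment numbers given are before scaling. The steps were tested on simulated data. Intervals are exact binomial (Clopper-Pearson, 95%). They cover counting error only, because peaks of 1 library are not replicates. PCR duplicates were not examined. Python 3.11.15 with scipy 1.17.1 was used.

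The region, lists and tests were chosen with earlier results of these data known. All peaks of the cluster are named, and elsewhere the 5 of highest fold enrichment and the widest per list. Planned counts of further carbonic anhydrase genes and markers were not made, since no hg19 gene positions were used. Alternatives were a -log10 q of at least 10, lists of equal length, merging within 1000 bp, other overlap rules, stretch by summit, shifted windows and a fold of 4.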

Additional observations from a re-analysis of the deposited data

How the results depend on the processing

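The direction of covered length, greater in M2 macrophages in the cluster and in THP-1 cells in the array, held at the stricter threshold, in lists of equal length and after merging. With a -log10 q of 10 or more the cluster held 4 M2 peaks and 1 THP-1 peak (100% of THP-1 peaks shared, length ratio 7.22), and the array 5 M2 and 22 THP-1 peaks (100% of M2 peaks shared, ratio 0.0998). In lists of equal length the cluster held 3 M2 peaks, with a length ratio of 2.79 and 33.3% of its THP-1 peaks shared, and the array 4, of which 100% were shared, with 11.8% of THP-1 array peaks shared and a ratio of 0.0691. Merging within 1000 bp left 20 THP-1 array peaks, 50% of them shared. The window with the array ranked 2 by THP-1 minus M2 length when windows were shifted by 500 kb. At a fold of 4, 22.1% of windows were higher in M2 macrophages and 2.71% in THP-1 cells. Among windows of at least 10 peaks, chosen after seeing the data, these were 61.8% and 0.388% at a fold of 2. Fewer peaks enter under the stricter settings, and the cause of the other shifts was not tested. The cut at a -log10 q of 10 keeps a larger share of the M2 list than of the THP-1 list. For equal length only the M2 list was shortened. Shares and length ratios of the whole lists under either setting are not given here. No paired analysis was possible because each cell type had 1 library. Few peaks in the cluster, 7 in M2 macrophages and 3 in THP-1 cells, limit every share there.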

Other observations

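The 12 strongest THP-1 peaks of the array had regular spacing at its upper end. Counted in order along the chromosome, their last 4 summits lay 12201, 12164 and 12203 bp apart, and the other gaps ran from 1109 bp to 155999 bp. These 4 peaks had fold enrichments of 7.69 to 11.5, and 2 of them had an M2 counterpart. No peak of either list lay between 86574910 and 86727325, a length of 152.4 kb inside the array, and whether hg19 holds sequence there was not examined here.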
